A study of Mus musculus with 4 samples.

Results

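The genes of the mitochondrial respiratory chain and ATP synthase that are encoded in the nucleus were examined for open chromatin in young and aged hematopoietic stem cells. They were taken by symbol from the RefSeq protein-coding genes of assembly GRCm38.p6: symbols starting with Ndufa, Ndufb, Ndufc, Ndufs, Ndufv, Uqcr, Cox4 to Cox8 or Atp5, and Sdha to Sdhd. This gave 96 of the 21883 protein-coding genes of the assembled nuclear chromosomes. Of the 96 genes, 87 had a narrow peak with its midpoint within 1 kb of either end of the gene in at least 2 libraries, as had 14798 other genes, and the comparisons below are made among these.

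The respiratory chain passes electrons from NADH (complex I) and succinate (complex II) over ubiquinone to complex III, then over cytochrome c to oxygen at complex IV. Complexes I, III and IV pump protons out of the mitochondrial matrix, and complex V, the ATP synthase, makes ATP from their return. Long-term hematopoietic stem cells are known for low mitochondrial activity at rest and for relying on respiration when they leave rest and differentiate. Most subunits are encoded in the nucleus and transcribed from promoters that are active in nearly all cells, while a few isoform genes are restricted to muscle, testis or other tissues.

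The study applied ATAC-seq, which cuts and tags open DNA with the transposase Tn5, to long-term hematopoietic stem cells of wild-type C57BL/6 mice. The design asked which accessible sites are specific to age in these sorted cells. Young mice were 4 to 5 months old and aged mice 20 to 22 months old, with 2 libraries at each age, described as biological replicates of 25000 sorted cells. Sex, and any pooling of several mice, are not given in the sources used here. With 2 libraries an age no test was run here, and every FDR printed is that of the authors, which measures only the spread between these libraries.

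The narrow lists held 105412 and 125419 intervals in the young libraries and 115888 and 132098 in the aged libraries on these chromosomes. Sequencing depth is unknown, so no depth stands behind a fold or level, and the intervals printed with shares of genes cover counting error only. Of 13 stem cell marker genes, 12 had a narrow peak at a gene end in all 4 libraries and Mecom had one in 3. Peaks in all 4 libraries also lay at the ends of 3 of 12 markers of other blood lineages and of 2 of 5 non-blood genes (Alb and Neurod1). A peak at a gene end shows open DNA, not expression.

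The sequences of some promoters are printed first because the results turn on a few recurring layouts: a member and a neighbour transcribed away from each other out of a short gap, a member with its own promoter, and an isoform gene with no peak. They are RefSeq promoter windows of GRCm38.p6, available for 78 of the 96 genes, cut to the bases before the start and to the gap before the next gene. Each is printed 5′ to 3′ on the member's strand, with matches to the motifs listed further below in capitals. The gap between Ndufa8 and Morn5 (chr2:36049339-36049472, minus strand), that between Ndufa11 and Vmac (chr17:56717700-56717761, plus strand) and that between Sdha and Ccdc127 (chr13:74350241-74350316, minus strand) lie in regions that were lower in aged cells. The capitals in the Ndufa8 gap mark SP1 and NRF1 letters, those in the Ndufa11 gap mark NRF1 letters, and none of the searched motifs lay in the Sdha gap.
Ndufa8: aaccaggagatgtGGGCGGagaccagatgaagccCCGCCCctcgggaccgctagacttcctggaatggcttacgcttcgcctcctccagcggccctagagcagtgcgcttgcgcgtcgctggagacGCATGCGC
Ndufa11: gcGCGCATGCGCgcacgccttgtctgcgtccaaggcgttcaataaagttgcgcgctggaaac
Sdha: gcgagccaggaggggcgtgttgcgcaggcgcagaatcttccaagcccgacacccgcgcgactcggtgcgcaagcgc

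The next sequences set the ubiquitous gene Cox8a (chr19:7217617-7217866, minus strand), which had a peak in every library, beside its muscle isoform Cox8b (chr7:140900447-140900696, minus strand), which had none. The Cox8a stretch holds 11 CpG dinucleotides and 1 CCAAT letter match in capitals, and the Cox8b stretch holds 1 CpG and no match. Further matches in the windows of these genes, ETS in Cox8a and TATA in Cox8b, extend past the printed bases. Cox6a1 (chr5:115348959-115349208, minus strand) is shown because its upstream bases hold NRF1, ETS, SP1 and CCAAT letters together, all in capitals.
Cox8a: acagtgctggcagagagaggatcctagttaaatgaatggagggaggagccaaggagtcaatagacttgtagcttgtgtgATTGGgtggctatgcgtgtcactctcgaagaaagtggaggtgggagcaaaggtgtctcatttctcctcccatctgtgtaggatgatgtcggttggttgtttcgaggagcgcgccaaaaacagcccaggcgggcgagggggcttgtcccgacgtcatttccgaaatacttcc
Cox8b: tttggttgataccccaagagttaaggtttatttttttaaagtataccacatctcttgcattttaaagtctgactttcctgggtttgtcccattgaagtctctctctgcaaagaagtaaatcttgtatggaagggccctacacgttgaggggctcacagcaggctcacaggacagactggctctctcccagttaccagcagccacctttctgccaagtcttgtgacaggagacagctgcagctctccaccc
Cox6a1: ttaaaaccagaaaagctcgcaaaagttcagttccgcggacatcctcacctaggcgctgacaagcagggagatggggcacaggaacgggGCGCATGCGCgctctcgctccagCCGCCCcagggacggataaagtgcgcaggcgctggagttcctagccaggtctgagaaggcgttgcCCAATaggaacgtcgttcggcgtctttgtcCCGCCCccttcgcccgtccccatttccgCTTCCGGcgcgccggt

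Open chromatin at the ends of respiratory chain genes was nearly general at both ages. All 87 genes had a peak in all 4 libraries, which is 90.6% of the 96, while 63.5% of other protein-coding genes had one in all 4. The count per library was 87 and 87 in the young and 87 and 88 in the aged replicates. Other mitochondrial genes were open about as often. A peak in all 4 libraries lay at 94.9% of mitochondrial ribosome genes and 96.3% of the assembly factors of complexes II to V. For genes of the citric acid cycle the share was 92.9%. Strength was measured as the percentile of the −log10 p-value of the strongest interval at a gene's ends among all narrow intervals of the same library, averaged over the 4 libraries. Its median was 95.3 over the 87 genes and 90.8 over other genes with a peak. Over the other mitochondrial lists just named it was 93.4, 95.9 and 95.3, in that order. In single libraries the members' median percentile was 94.5 and 95.5 in the young and 95.5 and 95.2 in the aged libraries, so the ages overlapped.

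By complex, the median strength ran from 93.6 (12 complex IV genes) to 96.6 (4 complex II genes), with 95.4 for the catalytic core of complex I, 94.4 for its accessory subunits, 95.6 for complex III and 96.2 for complex V. The strongest was Atp5g1, 1 of 3 genes for the proton-carrying c subunit of ATP synthase, at a strength of 99.8. The core subunits Ndufv1, which binds NADH, and Ndufv2, its iron-sulfur partner, followed at 99.4 and 98.5, with Cox7c of complex IV also at 98.5. At Atp5g1 the fold enrichment over background given by the authors' peak caller was 11.7 and 12.4 in the young and 11.4 and 12.6 in the aged replicates. Among the weakest members with a peak were the δ subunit of ATP synthase, Atp5d, at 60.2, and Ndufa4l2 at 63.0. Ndufa4l2 had fold enrichments of 3.58 and 4.36 in the young and 3.95 and 5.09 in the aged libraries, so the ages overlapped.

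**Figure D1:**
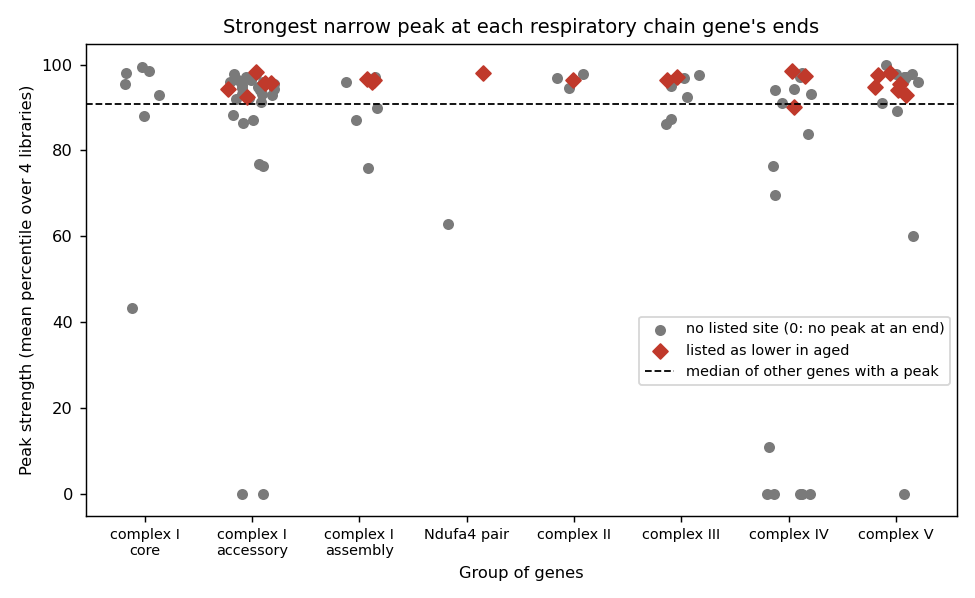
Each point is 1 respiratory chain gene, placed by its group and by the strength of its strongest narrow peak (mean percentile over 4 libraries, 0 where no library has a peak at an end), with points spread sideways for legibility. Most genes lie above the dashed line, the median of 90.8 over other genes with a peak, and the genes with a site listed by the authors as lower in aged cells (diamonds) lie between 90.1 and 98.5.

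The isoform pairs differed in openness. Of 8 tissue-restricted isoform genes 4 had no peak at either end in any library: Cox6a2 and Cox8b, the muscle isoforms, and Cox7b2 and Cox8c, testis isoforms. Their ubiquitous counterparts Cox6a1, Cox7b and Cox8a had a strength of 94.2, 69.6 and 97.4. The other 4 restricted genes were open: Cox7a1, the muscle isoform, at 93.1, the testis isoform Cox6b2 at 90.1 beside 98.0 for Cox6b1, the hypoxia-linked Cox4i2 at 76.4 beside 91.0 for Cox4i1, and Ndufa4l2 at 63.0 beside 98.0 for Ndufa4. Ndufa4 was first assigned to complex I and later to complex IV, so this pair was kept apart from both. The regions of Ndufa4l2 and Cox6b2 also lay at an end of another gene, Stac3 and Fam71e2. No promoter window was available for Ndufa4l2, so whether its peak lies at its own start was not tested. Cox7a2l had a strength of 94.1.

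For 3 ubiquitous genes the gene ends missed an open promoter. Atp5g3, Cox5a and Cox7a2 had no peak within 1 kb of an end in 3 or 4 libraries (Cox5a had one in aged replicate 2), but in all 4 at the RefSeq start in the promoter table, which lies 1138, 3904 and 4612 bp from the nearest end. At these starts their strength was 94.3, 96.5 and 99.2. Cox7a2 had fold enrichments there of 10.4 and 12.6 in young and 12.7 and 13.3 in aged replicates. Atp5d, weak at its ends, had a strength of 87.9 at a start 3513 bp away. With Atp5g2 at 96.0, all 3 c-subunit genes had a peak at an end or at the RefSeq start in all 4 libraries. Counted at RefSeq starts, 75 of 78 genes had a peak in all 4 libraries, the exceptions being Cox7b2, Cox8b and Ndufb4b. Ndufb4b and Ndufb4c, further copies of the accessory subunit gene Ndufb4, had no peak at an end in any library.

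Peaks at members were centred just before the start of transcription. The highest summit lay within 250 bp of the RefSeq start in 94.6% and 89.3% of members in the young libraries and in 92.0% and 89.3% in the aged ones, against 77.3% to 79.0% of other genes. Its median position was 15.5 and 21.0 bp upstream in the young and 23.0 and 28.0 bp upstream in the aged libraries for members, and 4.00 to 14.0 bp upstream for other genes. These shifts are small beside the spread of the members, whose lower and upper quartile were -66.5 and 13.8 bp in young replicate 1. Among members with a peak at an end and a start in the promoter table, the strongest interval lay nearer the start side in 69 of 72 (95.8%). The share was 90.6% over other such genes. The other genes in these comparisons were not matched to the members in peak strength. Whether strength accounts for the differences was not tested.

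**Figure D2:**
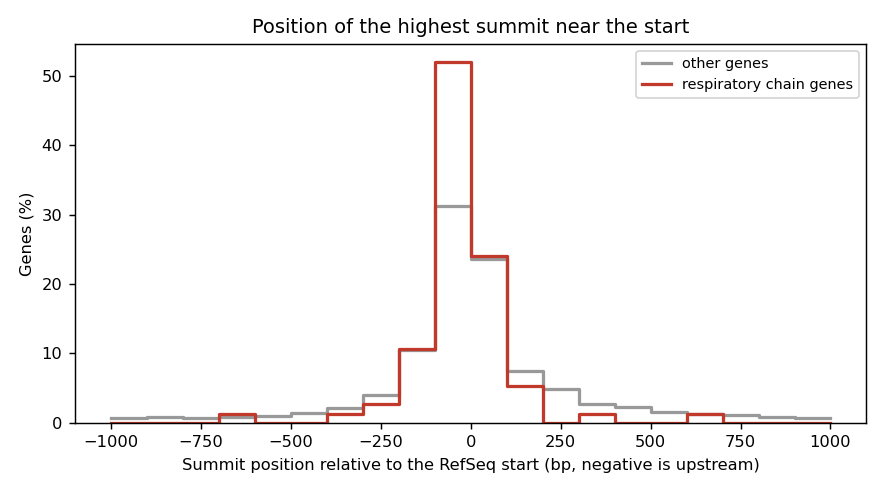
The lines give the share of genes (vertical axis, percent) by the position of the highest narrow-peak summit relative to the RefSeq start in bins of 100 bp (horizontal axis, the median over libraries), for 75 respiratory chain genes and 12126 other genes. The bin just upstream of the start holds 52.0% of the respiratory chain genes and 31.3% of the other genes, which were not matched for peak strength.

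By the authors' normalized levels, aged cells had lower accessibility at some of these genes and higher accessibility at none that passed the authors' limit. The authors compared the ages with DiffBind and deposited the sites with an FDR up to 0.05. Their narrow table held 4900 lower and 27 higher sites on these chromosomes, so few higher sites were listed at any gene. In the authors' deposited table of narrow sites, a site lower in aged cells lay at 21 of the 87 members (24.1%, exact 95% interval 15.6% to 34.5%), and such a site lay at 21.9% of all 14885 genes with a peak. A higher narrow site lay at 0 members and at 0.0134% of all genes. A lower broad site lay at 1 member, Ndufb1, and at 4.23% of all genes, and a higher broad site at 0 members and at 0.0470% of all genes in the authors' deposited table. The tables hold only sites under the FDR limit, so unadjusted p-values of the other sites were not analysed here. The members' share of lower narrow sites was thus near the background.

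Strong regions are listed more often, so the share was set beside that of other genes of the same strength. In the 5 weaker of 10 strength bins a lower site lay at 1 of 19 members (5.26%) and at 11.7% of other genes, and in the 5 stronger bins at 20 of 68 members (29.4%) and at 32.1% of other genes. Weighted to the members' bins, 28.7% of other genes had a lower site, which would be 24.9 of 87 genes, and the members' share was 4.54 points below it. With strength ranked by fold enrichment instead of −log10 p, the weighted share was 22.0% and the members lay 2.14 points above it. The exact interval of the members' share includes both values.

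**Figure D3:**
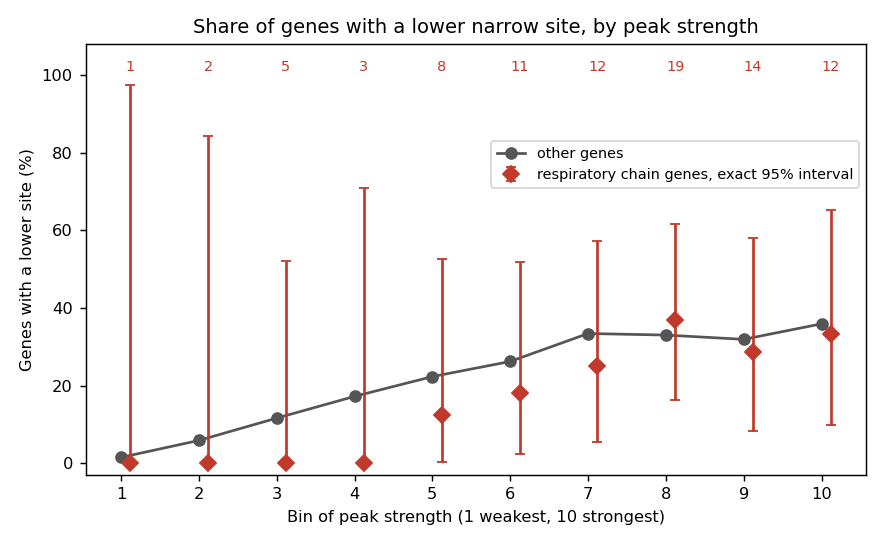
The vertical axis gives the percent of genes with a lower narrow site in the authors' deposited table and the horizontal axis the bin of peak strength, for other genes (line) and respiratory chain genes (diamonds with exact 95% intervals, their number above). The share among other genes ran from 1.48% in the weakest to 35.9% in the strongest bin. Every interval of the respiratory chain genes includes it, but with 1 to 19 of them in a bin the intervals are too wide to show a difference.

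The lower sites at members were shallow, with a median near that of other genes. Their median log2 fold of aged over young in the authors' deposited table was -0.36, ranging from -0.49 to -0.29, which are linear ratios of 0.712 to 0.818. Lower sites at other genes had a median of -0.37 and reached -1.51 in the authors' deposited table, and 324 of these 3232 genes (10%) had a site below -0.5 while no member did. An FDR under 0.01 was reached by 2 of 21 members (9.52%), Ndufb1 and Ndufa8, and by 20.6% of the other genes with a lower site. Over 21 sites these counts are too small to set the members apart from other genes.

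In complex I, listed sites lay at 0 of 7 core subunit genes, 5 of 30 accessory subunit genes and 3 of 8 assembly factor genes with a peak. Beside the 21.9% of all genes, these counts are too small to set the groups apart. The smallest FDR belonged to Ndufb1, a small membrane-arm subunit, whose site (chr12:101975132-101976684) covers the starts of Ndufb1 and Cpsf2. In the authors' deposited table its level was 9.74 in young and 9.33 in aged cells on the log2 scale (log2 fold -0.41, FDR 0.00550), and the broad site there went from 9.81 to 9.40 (FDR 0.0306). The caller's fold enrichment at Ndufb1 was 5.78 and 6.62 in the young and 5.80 and 8.93 in the aged libraries, so on that scale the ages overlapped and aged replicate 2 was highest.

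Ndufa8, a subunit held in the intermembrane space by disulfide bonds, had the largest fall among the 21 listed sites. Its site (chr2:36048549-36050038), which spans the printed gap to Morn5, fell to an aged level of 8.51 in the authors' deposited table (log2 fold -0.49, FDR 0.00980). The interval at this site had fold enrichments of 10.5 and 10.1 in young and 9.67 and 11.3 in aged replicates, again overlapping. Ndufa11, a membrane-arm subunit whose site spans the printed gap to Vmac, went from 9.85 to 9.55 (FDR 0.0226) and Ndufb5 from 9.70 to 9.39 (FDR 0.0333) in the authors' deposited table. The Ndufb5 site also covers the start of Mrpl47, a mitochondrial ribosome gene.

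The site counted for Ndufb6 was not at its promoter. It lay 9714 bp from the RefSeq start of Ndufb6, at the other end of the gene, where Smim27 and Topors begin. In the authors' deposited table it went from 9.09 to 8.69 (FDR 0.0292). In young replicate 2 the strongest interval at an end of Ndufb6, with a fold enrichment of 12.5, was another one, and the interval at the site had 7.51. Among the 18 members with a lower site and a start in the promoter table, Ndufb6 was the exception, and the site midpoint of the other 17 lay within 1 kb of that start.

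The assembly factors Ndufaf5, a hydroxylase, and Ndufaf7, a methyltransferase, had log2 folds of -0.42 (FDR 0.0159) and -0.37 (FDR 0.0247) in the authors' deposited table. Ndufaf4, outside the set of 20 chosen by FDR and named after its values were seen, had -0.31 (FDR 0.0488). Ndufa4 went from 9.71 to 9.42 in the authors' deposited table (log2 fold -0.29, FDR 0.0419), the smallest change among the 21 listed sites.

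In complex II, which also belongs to the citric acid cycle, 1 of 4 genes had a listed site. Sdha encodes the flavin-carrying catalytic subunit, and its site (chr13:74349668-74350793), which covers the printed gap to Ccdc127, went from 8.90 to 8.50 in the authors' deposited table (log2 fold -0.40, FDR 0.0319). The fold enrichment at Sdha was 11.7 and 9.02 in the young and 11.7 and 12.8 in the aged libraries, young replicate 2 being the lowest. The iron-sulfur subunit gene Sdhb had fold enrichments of 8.74 and 9.39 in young and 10.6 and 10.7 in aged replicates, and the membrane anchor gene Sdhc had 10.6 and 10.6 in the young and 12.4 and 13.8 in the aged libraries. Sdhd, the other anchor, had 10.9 and 11.7 in young and 12.3 and 15.8 in aged replicates. At Sdhb, Sdhc and Sdhd both aged values lay above both young ones, as they did at 37.4% of other genes without a lower site, and none of these genes had a listed site. As a percentile among gene ends Sdhb overlapped, at 62.5 and 68.1 in young and 80.8 and 63.4 in aged replicates.

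In complex III, 2 of 8 genes had a listed site. Uqcrb, a ubiquinone-binding subunit, had a log2 fold of -0.36 (FDR 0.0393) and Uqcrc2, a core protein, -0.35 (FDR 0.0328) in the authors' deposited table. The region of Uqcrb also lay at an end of Gm10767, while that of Uqcrc2 lay at no other protein-coding gene.

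In complex IV, 3 of 12 genes with a peak had a listed site. The site of Cox8a (chr19:7217081-7218272), a gene with no protein-coding neighbour at its region, went from 9.21 to 8.79 in the authors' deposited table (log2 fold -0.42, FDR 0.0145). Its fold enrichment was 9.09 and 10 in young replicates 1 and 2 and 9.85 and 13.7 in the aged ones, with aged replicate 1 between the young libraries. Cox7c went from 9.29 to 8.96 (FDR 0.0410), and the testis isoform gene Cox6b2, whose start lies near an end of Fam71e2, from 9.33 to 9.01 (FDR 0.0479) in the authors' deposited table. Cox6b2 was the only 1 of the 4 open tissue-restricted isoform genes with a listed site.

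In complex V, 6 of 16 genes with a peak had a listed site (37.5%), beside 21.9% of all genes with a peak. The 28.7% of other genes given above is weighted to the strength of all 87 members. In the strength bin that holds the median of complex V, 96.2, 33.0% of other genes had a lower site. Over 16 genes the count is too small to set complex V apart. Among the 6 were Atp5a1 and Atp5b, the α and β subunits of the catalytic head, and Atp5c1, the γ subunit of the central stalk. Their log2 folds were -0.40 (FDR 0.0378), -0.34 (FDR 0.0450) and -0.36 (FDR 0.0271) in the authors' deposited table. The ε subunit gene Atp5e had -0.43 (FDR 0.0207), and Atp5pb, the b subunit of the peripheral stalk, -0.40 (FDR 0.0153) in that table. Atp5b, at no other protein-coding gene, had fold enrichments of 8.19 and 9.38 in the young and 9.94 and 11.6 in the aged libraries, both aged values above both young ones while the authors' level fell.

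Atp5j, another peripheral stalk gene, had the highest level of the 21 sites. Its site (chr16:84834313-84836408) had a young level of 10.31 in the authors' deposited table and fell (log2 fold -0.31, FDR 0.0142). This site covers the start of Gabpa, which encodes the ETS-family subunit of a transcription factor known to act on respiratory chain genes. The 2 starts lie 148 bp apart on opposite strands, so accessibility at these genes cannot be told apart here. Fold enrichment at Atp5j was 6.20 and 6.47 in the young and 7.78 and 6.85 in the aged replicates.

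**Figure D4:**
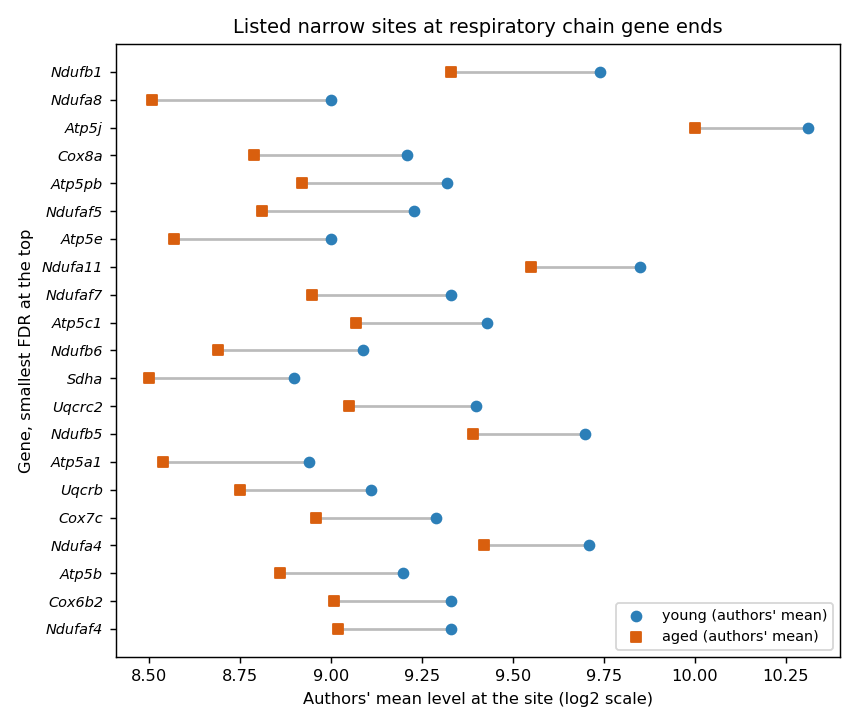
For each of the 21 respiratory chain genes with a lower narrow site (vertical axis, ordered by FDR), the circle gives the authors' mean level in young and the square that in aged cells, on the log2 scale (horizontal axis). Atp5j lies highest, with 10.31 in young cells, and the aged symbol lies to the left of the young one at all 21 genes, with log2 folds from -0.49 at Ndufa8 to -0.29 at Ndufa4.

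Respiratory chain genes often share their open region with a neighbour. For 42 of the 87 members (48.3%) the strongest region also lay within 1 kb of an end of another protein-coding gene, against 3197 of 14798 other genes (21.6%). Other mitochondrial genes shared theirs about as often, with 49.3% of mitochondrial ribosome genes and 42.3% of the assembly factors of complexes II to V. For 31 of the 42 the start of the member and of the neighbour were both in the promoter table, and at 24 of these the starts lay within 1 kb on opposite strands. Examples by distance are Ndufa11 with Vmac, whose starts lie 63 bp apart, Sdha with Ccdc127 at 77 bp, Ndufa8 with Morn5 at 135 bp, Atp5pb with Wdr77 at 235 bp and Ndufb1 with Cpsf2 at 236 bp. Starts on opposite strands within 1 kb were as common among sharing members with a lower site (10 of 13) as among those without (14 of 18).

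Most lower sites at members lay on such shared regions. Among members that shared their region, 16 of 42 had a lower site (38.1%, exact 95% interval 23.6% to 54.4%), while 30.9% of other sharing genes in the same strength bins had one. Among members that did not, it was 5 of 45 (11.1%, exact 95% interval 3.71% to 24.1%), while 27.8% of other genes in the same strength bins had one, a difference of -16.7 points. The 5 were Cox8a, Uqcrc2, Cox7c, Atp5b and Ndufaf4. In complex I all 5 subunit genes with a lower site shared their region, and 0 of 18 unshared subunit genes had one. In complex V, 5 of 7 shared and 1 of 9 unshared genes had one. The shares were alike in complex III, at 1 of 4 shared and 1 of 4 unshared genes, and close in the complex I assembly factors, at 2 of 5 and 1 of 3. Genes of the citric acid cycle went the other way, at 0 of 4 shared and 3 of 9 unshared. Those of glycolysis did too, at 0 of 3 and 5 of 12. The assembly factors of complexes II to V went the same way as the members, at 6 of 11 and 4 of 15. So did complex I assembly genes outside the symbol rule, at 2 of 2 and 1 of 4. Mitochondrial ribosome genes, at 10 of 37 and 7 of 38, and all genes but the members, at 28.4% and 20.0%, also had that direction. Sharing was examined with the calls known and no test of it was made. The 11.1% rests on 5 genes. The citric acid cycle, glycolysis and assembly gene lists hold too few shared genes for a direction to be read from them.

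Peak height within each library did not follow the authors' levels. Over the 21 members with a lower site, the median fold enrichment of the strongest interval was 8.77 and 9.58 in the young and 9.73 and 11.3 in the aged libraries. Both aged values lay above both young ones at 11 of the 21 (52.4%) and below at 0, against 58.1% above and 1.42% below over all 3236 genes with a lower site and a peak in 4 libraries. Taken at the interval over the site itself, it was 12 above and 0 below. Fold enrichment is a ratio to local background within a library, and its median over all narrow intervals was also highest in aged replicate 2, at 5.14 against 4.45 to 4.77 in the other libraries. By the −log10 p-value, 7 of the 21 members had both aged values above and 3 (14.3%) both below the young ones, and the medians overlapped at 44.0 and 41.8 in young and 45.7 and 42.8 in aged replicates. The authors' level is a mean of normalized reads whose normalization is not given in the sources used here, and the cause of the difference between the measures was not tested.

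**Figure D5:**
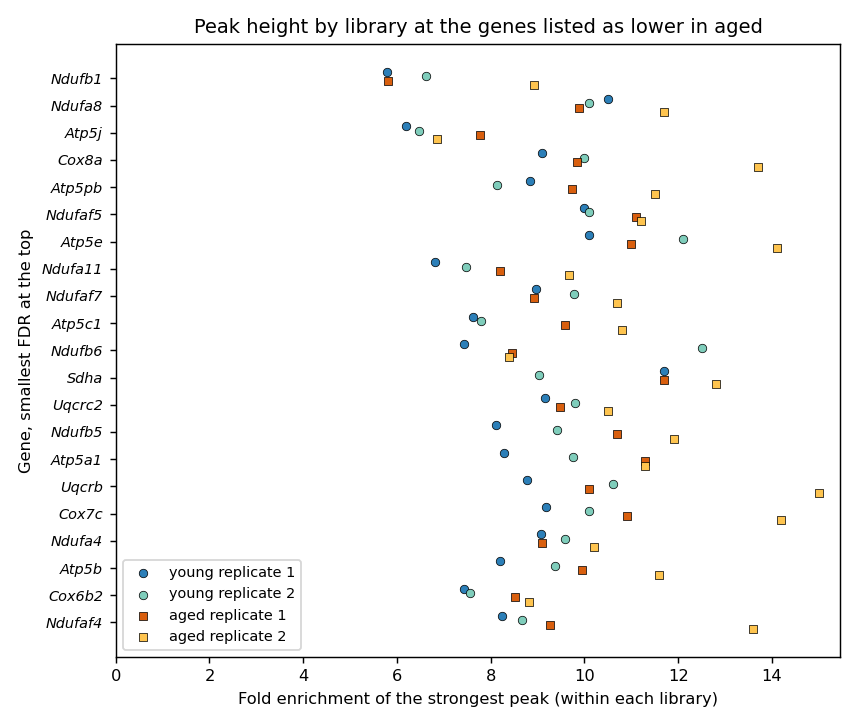
For the 21 respiratory chain genes with a lower narrow site (vertical axis), the symbols give the fold enrichment of the strongest narrow peak in each library (horizontal axis, linear), offset vertically by library. Aged replicate 2 has the highest median, 11.3, and at 11 genes both aged libraries lie to the right of both young ones.

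To compare libraries without such a shift, each gene's fold enrichment was ranked among the 13922 genes with a peak in all 4 libraries, as a percentile. The change of this rank from young to aged had a median of 0.384 points over the 87 members and 0.424 over other genes, and 42 members (48.3%) had a lower rank in aged libraries. The members' median was below the difference of 1.48 points between libraries of the same age, and it turned to -0.614 without young replicate 1 and to -0.172 without aged replicate 2. Both aged ranks lay below both young ones for 16 members (18.4%) and for 17.0% of all genes, and above for 15 members (17.2%) and for 19.5% of all genes.

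Over the 21 members with a lower site the median rank change was 9.54 points, with 28.6% below 0, and over the members without one it was -1.30. Other genes had median rank changes of 3.66 with a lower site and -0.458 without one. In single libraries the median rank of the 21 members was 63.0 and 70.6 in the young and 69.6 and 71.1 in the aged replicates. The ages thus overlapped, with young replicate 1 lowest. Among the members Cox4i2 had the largest downward change, with percentiles of 71.7 and 45.6 in the young and 21.4 and 31.2 in the aged libraries and no overlap. The accessory subunit gene Ndufv3 had 86.2 and 69.4 in the young and 40.8 and 58.8 in the aged libraries, again without overlap. At the other extreme, the accessory subunit gene Ndufa9 had 55.5 and 84.7 in young and 89.1 and 99.6 in aged replicates, both aged values being higher. Cox4i2, Ndufv3 and Ndufa9 had no listed site. The next 6 upward changes after Ndufa9, whose rank rose by 24.2 points, belonged to members with a lower site. They were Ndufaf4 (21.2 points), Atp5c1 (21.1), Ndufb5 (19.7), Cox7c (16.3), Atp5a1 (15.2) and Atp5pb (14.6). Ndufab1 (13.8), Ndufs1 (12.9) and Cox7a1 (12.8), which came next, had no lower site. Ndufb6, which had one, changed by -26.7 points, but in young replicate 2 its strongest interval was not that at the site. Ndufv3, Ndufa9 and the genes named after it were chosen here after their values were seen.

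Promoter letters were then compared with those of other open genes, in RefSeq windows from 250 bases before to 50 after the start. Letters were searched on both strands. For factors known to drive nuclear genes of the respiratory chain, the letters were GCGCATGC for NRF1, CCGGAAG for the ETS factor GABPA and AAGATGGC for YY1. For general promoter factors they were GGGCGG for SP1, CCAAT for the CCAAT box and TATAAA for the TATA box. The cyclic AMP response element (CRE) was TGACGTCA, the element of the estrogen-related receptor (ERRA) was TCAAGGTCA, and the E-box was CACGTG. None of these strings contains another, although matches on opposite strands can overlap, as in the printed NRF1 run of Ndufa11.

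The NRF1 letters were in 12 of 78 member windows (15.4%), against 4.80% of 11741 other genes with a peak and 3.60% of all 17491 windows. YY1 letters were in 10 (12.8%), against 3.91% of other open genes and 3.21% of all. ETS letters were in 18 (23.1%), against 15.9% and 11.9%. At least 1 of these 3 motifs was in 34 members (43.6%), against 22.6% of other open genes and 17.3% of all windows. The 78 windows include those of 6 members that were not open at an end and held none of these 3 motifs, and over the 72 open members the share was 47.2%. SP1 letters went the other way, in 44.9% of members and 61.9% of other open genes, with 46.3% of all.

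The remaining motifs were in similar shares of members and other open genes or in few members. CCAAT was in 43.6% of members, 38.6% of other open genes and 39.2% of all windows, and TATA in 10.3%, 7.67% and 13.3%. CRE was in 5.13%, 3.05% and 2.33%, and the E-box in 7.69%, 9.74% and 7.91%. ERRA letters were in 2 members, Atp5g3 and Sdhd (2.56%), and in 0.273% of other open genes and 0.332% of all windows. Members held a median of 19.5 CpG in the 300 bases and other open genes 20.0, while other genes with a peak in fewer than 2 libraries held 3.

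The letters were also counted in members with and without a lower site. NRF1, ETS or YY1 letters were in 8 of 18 windows of members with a lower site (44.4%) and in 26 of 54 windows of open members without one (48.1%). NRF1 letters were in 4 of the 18 (22.2%), at Ndufa8, Ndufa11, Ndufaf4 and Ndufaf5, and in 8 of the 54 (14.8%). YY1 letters were in 1 of the 18 (Atp5pb) and in 9 of the 54. With 18 windows these shares are too imprecise to rank.

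Other genes of the pathway were counted from fixed lists, in the same way. Cytochrome c and the cytochrome of complex III, Cycs and Cyc1, were both open in all libraries and had no listed site. Of the assembly factors of complexes II to V, 26 of 27 had a peak and 10 of these (38.5%) a lower narrow site in the authors' deposited table, among them Sco1, a copper chaperone of complex IV, and Surf1, a complex IV assembly factor. Of 6 complex I assembly genes outside the symbol rule 3 had a lower site. Of the 10 regulators with a peak, 2 had one, Yy1 and Gabpa, the latter by the site it shares with Atp5j. For the mitochondrial ribosome it was 17 of 75 genes (22.7%), for the citric acid cycle 3 of 13 and for glycolysis 5 of 15. None of these lists had a higher narrow site, and the share over all genes with a peak was 21.9%.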

How the data were processed

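ATAC-seq peak lists of 2 young and 2 aged libraries, 1 narrow and 1 broad list each, and the authors' tables of differing sites were used. Per the submitters' processing notes the tools were FastQC 0.11.9, BWA 0.7.17, MACS2 2.1.2 and DiffBind 2.14.0 with build GRCm38; read shifting, duplicate removal and normalization are not given in the sources used here, and each could change a peak's height or a site's level. A peak's fold enrichment (a ratio), −log10 p-value, −log10 q-value and summit offset were deposited as the authors computed them within each library, down to a −log10 p of 2.00 in the narrow lists. In the authors' deposited tables levels and folds are on a log2 scale, as means over an age with no value per library, with a p-value and FDR; the largest FDR was 0.0500 (narrow) and 0.0499 (broad). No column was left unmapped (0).

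Entries with the same interval were reduced to 1, with the highest values. A gene took the strongest interval with a midpoint within 1 kb of either RefSeq gene end, and a site was counted likewise. Genes with a peak in at least 2 libraries formed the background, in 10 bins of strength, and exact binomial intervals are at 95%. The gene table has no strand or exons, so exonic or intronic position was not analysed here. Position matching and the binned share were tested on simulated data. Tools were pandas 2.3.3, numpy 2.4.6 and scipy 1.17.1 under Python 3.11.15, with bedtools 2.31.1 for the check and matplotlib 3.10.9 for plots.

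The members, lists and tests were chosen with earlier results of these data known. Genes named were those with a listed site (the first 20 narrow and 10 broad by FDR), those with no peak in some library, the 3 strongest and 3 weakest, the isoform pairs and the Sdh genes; other names were chosen after their values were seen. Some items that this rule or the marker lists name are not reported here. Alternatives were other distances (500 bp, 2 kb, overlap), FDR under 0.01, other bins, measures and cuts of strength, leaving out libraries, assembly factors or shared regions, and the start side only. The RefSeq start in place of gene ends, removal of all sharing genes and the alternatives of rank and height were added after seeing the data.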

Additional observations from a re-analysis of the deposited data

How the results depend on the processing

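The 87 members with a peak in all libraries stayed within 1.5 times under every alternative run, and at 87 without any 1 library. An FDR under 0.01 in the authors' deposited tables left 2 members with a lower narrow site, whose median log2 fold was -0.45, and 0 with a lower broad site. Lower broad sites lay at 2 members within 2 kb and at 2 when overlap with the 1 kb window was asked. Without the members that share their region, 5 had a lower narrow site and 0 a lower broad site, and the difference from other genes of the same strength was -16.8 points. Without all genes that share their region it was -16.7 points, with 5 and 0 members. That difference, -4.54 points with all genes, was -4.83 to -4.37 points without any 1 library and turned to 2.14 points with strength from fold enrichment. Median strength, 95.3, was 91.6 by fold enrichment, 94.8 with the same number of intervals in each library, 94.5 in young replicate 1 alone, and 95.1 to 95.6 without any 1 library. The median rank change, 0.384, ran from -0.614 (without young replicate 1) to 0.804, and was -0.172 without aged replicate 2. The count of lower members with both aged values above both young, 11, was 7 by rank of fold enrichment and 7 by −log10 p. No paired analysis was possible because the authors' tables hold no values per library and no result here comes from a test. Depth is unknown, which limits what an unlisted site shows.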

Other observations

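Pseudogenes named after members were counted as a check on the symbol rule. Of 19 pseudogenes with these prefixes, 15 had no narrow peak at an end in any library, 1 (Ndufs6b) had one in all 4, and 0 had a lower site in the authors' deposited table.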
